A study of Homo sapiens with 30 samples.

Results

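The ID genes and the feedback genes of bone morphogenetic protein (BMP) signalling were taken as 9 genes chosen by symbol, ID1, ID2, ID3, ID4, SMAD6, SMAD7, SMAD9, BAMBI and SKIL, out of 22383 genes in a table of RNA levels from 22Rv1 cells. Each gene was read from its RefSeq transcript with the highest summed level. In GRCh38.p14 the genes lie at chr20:31605289-31606510 (ID1), chr2:8682056-8684461 (ID2), chr1:23557926-23559501 (ID3), chr6:19837370-19842197 (ID4), chr15:66702236-66782849 (SMAD6), chr18:48919853-48950965 (SMAD7), chr13:36844831-36920854 (SMAD9), chr10:28677521-28682932 (BAMBI) and chr3:170357715-170396849 (SKIL). The list was drawn up with values of these data known, among them the level of ID3 in DMSO and 0 h libraries, so the levels of ID3 are given below as a description with no test.

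BMP ligands bind a pair of receptor kinases, which phosphorylate SMAD1, SMAD5 and SMAD9, and these enter the nucleus with SMAD4 and switch on target genes. The ID genes are the best known of these targets: their proteins bind helix-loop-helix transcription factors and keep them off DNA, and they are linked with proliferation and with blocked differentiation in many epithelia, prostate included. SMAD6, SMAD7 and BAMBI are induced by the same pathway or by its TGF-beta branch and act back on the receptors, while SKIL represses SMAD target genes in the nucleus.

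22Rv1 is a human cell line of castration-resistant prostate cancer, and the experiment was SLAM-seq, in which cells build 4-thiouridine (s4U) into new RNA and iodoacetamide makes those bases read as C where the gene has T. All cells first received 800 µM s4U for 30 min. The tested groups then had fresh medium with s4U and 1.2 µM KB742 for 2, 4 or 8 h, or s4U and 4 µM KI-ARv-03 for 2, 4 or 8 h, and both compounds inhibit CDK9, the kinase that releases paused RNA polymerase II. Their controls had s4U and DMSO in fresh medium for 2, 4 or 8 h, and the 0 h cells were lysed right after the first 30 min. Each of the 10 groups had 3 libraries of 3′ ends, 30 in all, from 1 line, and nothing in the labels says that the 3 were separate cultures, so p-values measure the spread between these libraries, which may be technical. A free-text note on treatment gives DMSO for all samples, and some treatment fields at 4 h and the note on the KB742 dose also disagree with the titles. The titles were used to tell the compound.

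Libraries held 3376884 to 9265131 reads, of which 1416051 to 3971413 lay on the genes kept. All 10 luminal prostate markers were read in all 30 libraries, and of 9 markers of other cells COL1A2 and PTPRC had 0 reads, KRT5, TP63 and PECAM1 had 6, 1 and 1, and SYP, VIM, COL1A1 and CHGA were read in all 30, with 6103, 1177, 666 and 304 reads. Of the 30 libraries, 3 stood apart: the replicate labelled 3 at 0 h and the replicate labelled 2 of KB742 at 2 h had mean Spearman correlations of 0.882 and 0.872 with their own group (0.894 to 0.961 in the other 28), and KI-ARv-03 4 h replicate 1 had a mean conversion of 1.18%, against 0.383% and 0.422% in its fellow replicates. The DMSO 4 h libraries had 1.12%, 1.01% and 1.12%, and whether that KI-ARv-03 library carries the right label was not tested. CPM here are reads scaled to the library total of the genes kept, rescaled by TMM factors, so each level depends on the rest of its library, and in bulk RNA fewer cells and less RNA per cell cannot be told apart. A gene was called at an adjusted p under 0.05 (limma, Benjamini-Hochberg over all genes tested), and log2 differences of log2(CPM + 1) are given ± SE.

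ID1, ID2 and ID3 stood at their highest level at 0 h and were far lower in every later library. The 150 bases before the RefSeq start of these genes (RefSeq, GRCh38.p14) are shown for the SMAD boxes they hold, and the BMP-responsive elements known for ID genes lie further upstream, outside these windows. Capitals mark GTCT or its reverse complement AGAC, the SMAD box.
ID1, chr20:31605139-31605288, plus strand: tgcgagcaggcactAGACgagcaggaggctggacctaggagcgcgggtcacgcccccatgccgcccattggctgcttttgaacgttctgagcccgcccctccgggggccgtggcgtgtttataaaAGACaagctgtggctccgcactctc
ID2, chr2:8681906-8682055, plus strand: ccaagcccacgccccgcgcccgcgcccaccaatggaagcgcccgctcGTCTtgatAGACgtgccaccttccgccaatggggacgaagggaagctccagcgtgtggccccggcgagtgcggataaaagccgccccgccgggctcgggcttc
ID3, chr1:23559502-23559651, minus strand: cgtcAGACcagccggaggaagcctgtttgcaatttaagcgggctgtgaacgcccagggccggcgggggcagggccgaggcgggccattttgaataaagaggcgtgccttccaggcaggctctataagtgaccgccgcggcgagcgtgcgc
The longer search covered 250 bases before each start on both strands. GTCT or AGAC occurred in it 3 times for ID1, 2 times for ID2, 2 times for ID3 and 1 time for ID4, but 77.5% of 35116 promoters held it at least once. The other SMAD-linked letters searched, GGCGCC, were in none of these 4 windows and in 16.4% of promoters, and a match or its absence in such a window is a description only.

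ID1, an inhibitor of E-protein transcription factors, had 22.6, 38.7 and 36.6 CPM in DMSO 2 h libraries, 23.5, 17.5 and 24.2 CPM at 4 h and 17.3, 10.4 and 17.5 CPM at 8 h, against 106, 93.1 and 124 CPM at 0 h. The 0 h libraries stood above all 27 others, which ran between 8.14 and 38.7 CPM, while neighbouring DMSO times overlapped. The log2 difference from 0 h was -1.72, -2.26 and -2.78 at 2, 4 and 8 h of DMSO (each ± 0.34, adjusted p = 0.00373, 3.33e-05 and 4.74e-07). In order, the group means ran from 107 CPM at 0 h through 32.6, 21.7 and 15.1 CPM at 2, 4 and 8 h of DMSO, and the 6 compound groups, at 11.4 to 25.1 CPM, each overlapped the DMSO group of their time.

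ID2, which differs from ID1 in also binding retinoblastoma protein, had 53.5, 59.2 and 61.1 CPM after 2 h of DMSO, 30.8, 23.0 and 39.4 CPM after 4 h and 13.0, 20.1 and 12 CPM after 8 h, against 246, 228 and 308 CPM at 0 h. No 2 neighbouring DMSO times overlapped, so its levels kept the order of time. The log2 differences from 0 h were -2.14, -3.05 and -4.05 (each ± 0.37, adjusted p = 0.00122, 2.84e-06 and 7.64e-09). The mean at 8 h was 5.76% of that at 0 h, and 14% for ID1.

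ID3, the third inhibitor of the same kind, had 28.4, 50.7 and 37.7 CPM after 2 h of DMSO, 20.5, 12.7 and 24.2 CPM after 4 h and 3.71, 9.27 and 10.1 CPM after 8 h, against 309, 319 and 365 CPM at 0 h. Its DMSO times did not overlap either, and 8 h stood at 2.33% of the 0 h mean. These values were known when the gene was chosen.

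ID4, which often acts against the other ID proteins, was called lower from 4 h on. It had 42.6, 53.8 and 82.3 CPM after 2 h of DMSO, 35.2, 49.7 and 26.9 CPM after 4 h and 32.8, 24.7 and 23.0 CPM after 8 h, against 93.0, 93.5 and 70.1 CPM at 0 h. The 2 h libraries overlapped 0 h (-0.56 ± 0.37, adjusted p = 0.559), and those at 4 and 8 h lay below it (-1.21 ± 0.37, adjusted p = 0.0224, and -1.64 ± 0.37, adjusted p = 0.000815). The 4 h call was lost, with adjusted p of 0.0615 to 0.112, when 1 of 4 of its 6 libraries was left out. Its promoter, on chromosome 6, held AGAC once, outside the last 150 bases.

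**Figure D1:**
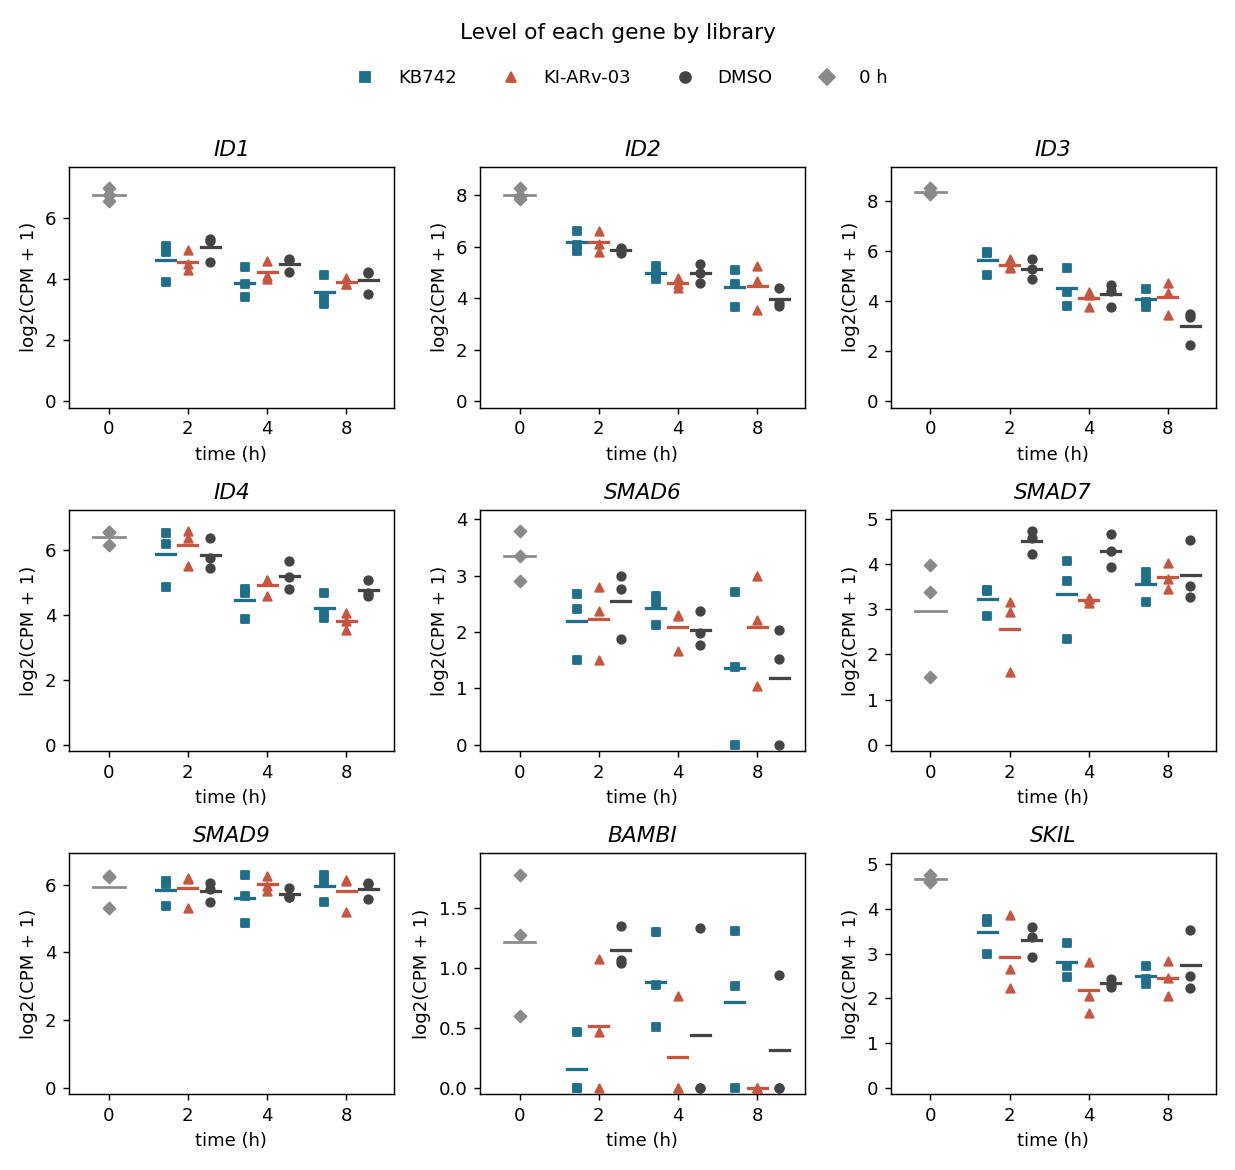
Level of each of the 9 genes by library, as log2(CPM + 1) on the y axis against hours on the x axis. Points are libraries and bars are group means of KB742, KI-ARv-03 and DMSO groups and of the shared 0 h group. ID1, ID2 and ID3 have their 3 highest libraries at 0 h, SMAD9 stays within 28.4 to 78.0 CPM, and SMAD7 has its highest libraries in DMSO at 2 and 4 h.

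SMAD6 and SMAD7 are the inhibitory SMADs, which bind activated receptors and block phosphorylation of the signal-carrying SMADs. Their promoters are shown for the paired SMAD boxes they hold (RefSeq, GRCh38.p14, capitals as above).
SMAD6, chr15:66702086-66702235, plus strand: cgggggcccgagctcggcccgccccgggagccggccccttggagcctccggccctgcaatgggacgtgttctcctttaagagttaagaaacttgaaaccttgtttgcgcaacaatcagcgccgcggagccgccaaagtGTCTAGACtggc
SMAD7, chr18:48950966-48951115, minus strand: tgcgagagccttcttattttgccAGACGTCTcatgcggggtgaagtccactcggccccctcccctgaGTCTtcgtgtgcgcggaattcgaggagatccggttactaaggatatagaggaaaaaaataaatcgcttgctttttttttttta
The joined form GTCTAGAC, looked for after these sequences were seen, began 12 bases before the start of SMAD6 and was in 64 of 35116 promoters (0.182%). The SMAD7 window is that of the first of its 3 RefSeq starts, and the 3′-end reads do not tell which start was used.

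SMAD6 was scarce, at 364 reads over the 30 libraries. It had 6.92, 5.81 and 2.66 CPM after 2 h of DMSO, 2.93, 2.38 and 4.16 CPM after 4 h and 1.86, 3.09 and 0 CPM after 8 h, against 12.8, 9.15 and 6.49 CPM at 0 h. At 4 and 8 h every DMSO library lay below every 0 h library, and the 8 h difference passed the test (-2.16 ± 0.58, adjusted p = 0.00351), with -0.80 (adjusted p = 0.598) at 2 h and -1.31 (adjusted p = 0.112) at 4 h.

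SMAD7, induced by both the BMP and the TGF-beta branch, had higher means with DMSO than at 0 h. It had 17.8, 25.5 and 22.8 CPM after 2 h of DMSO, 24.4, 14.3 and 18.5 CPM after 4 h and 8.66, 10.4 and 22.1 CPM after 8 h, against 9.43, 14.8 and 1.82 CPM at 0 h. All 2 h libraries lay above all 0 h libraries, but the differences of 1.56 ± 0.50, 1.34 ± 0.50 and 0.82 ± 0.50 did not pass (adjusted p = 0.108, 0.058 and 0.182). They turned on single 0 h libraries: 0.80, 0.57 and 0.05 without replicate 3, which stood apart, and 2.08, 1.84 and 1.32 without replicate 2 (adjusted p = 0.0469, 0.0192 and 0.0466).

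SMAD9 carries BMP signals weakly and is itself a BMP target. DMSO libraries had 44.4, 58.1 and 64.8 CPM at 2 h, 58.7, 48.9 and 48.8 CPM at 4 h and 63.7, 65.3 and 47.0 CPM at 8 h, against 75.7, 73.8 and 38.7 CPM at 0 h. The DMSO groups overlapped 0 h at each time, and the 95% interval of the 8 h difference ran from -0.77 to 0.67 around -0.05 ± 0.35 (adjusted p = 0.919).

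SKIL, the nuclear co-repressor that TGF-beta signalling both degrades and induces, had 6.56, 9.29 and 11.2 CPM after 2 h of DMSO, 4.40, 3.97 and 3.79 CPM after 4 h and 10.5, 4.64 and 3.68 CPM after 8 h, against 23.1, 23.8 and 26.2 CPM at 0 h. All DMSO libraries lay below all 0 h libraries. The difference was -1.37 ± 0.41 at 2 h (adjusted p = 0.0691), -2.33 ± 0.41 at 4 h (adjusted p = 0.000208) and -1.91 ± 0.41 at 8 h (adjusted p = 0.000406).

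BAMBI, a receptor decoy that lacks a kinase domain, had 50 reads over 30 libraries, at most 2.43 CPM, and did not pass the filter. It had 17 reads in the 3 libraries at 0 h, and none in 13 of the other 27. None were seen in the 3 libraries of KI-ARv-03 at 8 h, where 3 reads, the limit that a count of 0 allows for counting error, would be 1.21 to 1.58 CPM.

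Counted over the 7 tested genes other than ID3, 2 genes were called lower with DMSO at 2 h, where 2.64% of 11425 genes were called lower, 4 at 4 h (14.6% of genes) and 5 at 8 h (29.1% of genes). SMAD7 and SMAD9 were called at none of the 3 times. The median log2 difference over these 7 was -0.80, -1.31 and -1.91, beside -0.01, 0.01 and -0.14 over all genes. DMSO and 0 h differ in time, fresh medium, DMSO and longer s4U, and these cannot be told apart. The 3 DMSO comparisons share their 0 h libraries.

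Scaling matters for the genes near 0. With library size in place of TMM the median gene moved by -0.73 at 8 h and by -0.34 at 4 h, and SMAD9 at 8 h then stood at -0.84 and SMAD7 at 0.11, while ID1, ID2, ID4, SMAD6 and SKIL stayed between -2.42 and -4.82. Markers of other cells also moved between these groups: 3 of the 4 tested, COL1A1, CHGA and SYP, were called higher at 8 h of DMSO, and the summed level of the 9 listed was 88.5 to 158 CPM there, against 31.7 to 48.0 CPM at 0 h. Their part in the result was not tested.

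With the compounds, the ID genes were also far below 0 h at 8 h. At 8 h, KB742 libraries had 16.4, 9.52 and 8.14 CPM of ID1, and KI-ARv-03 libraries 13.3, 15.3 and 13.2 CPM, against the same 0 h libraries as above. Of the 7 tested genes other than ID3, 5 were called lower against 0 h with KB742 (22.2% of all genes were) and 4 with KI-ARv-03 (22.5% of all genes). ID1, ID2, ID4 and SKIL were among them in both: with KB742 they stood at -3.18, -3.59, -2.21 and -2.17, and with KI-ARv-03 at -2.85, -3.54, -2.62 and -2.21. SMAD6 was at -1.98 with KB742 (adjusted p = 0.0099) and -1.26 with KI-ARv-03 (adjusted p = 0.0938). The KB742 call of SMAD6 was lost without KB742 8 h replicate 3, at -1.30 (adjusted p = 0.101).

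Against DMSO at the same time, limma called none of the 7 tested genes other than ID3 with either compound at 2, 4 or 8 h, and neither did edgeR or DESeq2 on the recovered reads. The background was small: 0.0263%, 0.114% and 1.84% of genes were called under KB742 and 0.0263%, 0.07% and 2.91% under KI-ARv-03. At an unadjusted p under 0.05 there were 1, 0 and 0 of the 7 under KB742 and 1, 1 and 1 under KI-ARv-03. Over all 11425 genes there were 360, 556 and 1586 at that level under KB742, and 344, 453 and 1944 under KI-ARv-03. The compounds were given at different doses and share the DMSO libraries, so their values stand side by side here without a comparison between them.

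The genes past the unadjusted level were SMAD7 at the early times and ID4 at 8 h. SMAD7 had 9.82, 6.24 and 9.59 CPM with KB742 at 2 h and 2.06, 6.64 and 7.96 CPM in KI-ARv-03 libraries, against 17.8, 25.5 and 22.8 CPM with DMSO. Neither compound group overlapped DMSO. The differences were -1.28 (95% interval -2.32 to -0.25, adjusted p = 1) and -1.94 (-2.98 to -0.91, adjusted p = 0.692). At 4 h, SMAD7 had 8.41, 7.80 and 8.57 CPM with KI-ARv-03 and 4.09, 11.3 and 15.8 CPM with KB742, which overlapped the 14.3 to 24.4 CPM of DMSO. By 8 h all 3 groups overlapped, and the sign of the SMAD7 difference depended on the scaling.

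ID3 at 8 h had 21.6, 14.5 and 12.6 CPM in KB742 libraries and 25.8, 10.0 and 19.4 CPM in KI-ARv-03 libraries, against 3.71, 9.27 and 10.1 CPM with DMSO. Every KB742 library, and 2 of 3 KI-ARv-03 libraries, lay above every DMSO library. No test is given, since the DMSO values were known when the gene was chosen. ID2 at 8 h had 33.2, 11.5 and 22.2 CPM in KB742 libraries and 37.1, 10.5 and 24.3 CPM in KI-ARv-03 libraries, against 13.0, 20.1 and 12 CPM with DMSO, and these groups overlapped.

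ID4 at 8 h had 15.6, 24.5 and 14.1 CPM in KB742 libraries and 15.7, 10.5 and 13.2 CPM in KI-ARv-03 libraries, against 32.8, 24.7 and 23.0 CPM with DMSO. All KI-ARv-03 libraries lay below all DMSO libraries, and 1 KB742 library lay among them. The differences were -0.57 (95% interval -1.34 to 0.20, adjusted p = 0.522) and -0.98 (-1.74 to -0.21, adjusted p = 0.156). The change of each compound's effect between 2 and 8 h was called for none of the 7 genes (0.00875% of genes for either compound). At an unadjusted p under 0.05 there were 0 and 2 of them, beside 691 and 759 of 11425 genes. ID4 and SMAD7 were the 2, at -1.27 (adjusted p = 0.691) and 1.89 (adjusted p = 0.648) with KI-ARv-03.

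Conversion, the deposited T-to-C fraction that marks new RNA, ranged widely among these genes at 0 h. It is printed in percent and used only where 20 or more reads lay behind it. SMAD7 stood at 11.6% and 11% in its 2 usable 0 h libraries and ID1 at 3.75%, 3.66% and 2.07%, at percentiles 99.9 and 98.5 of 10049 genes, whose median was 0.28%. ID2 averaged 1.86%, ID3 0.991% and ID4 0.663% there, SMAD9, at 0.373%, lay near the middle, and SKIL, at 0.060%, lay at percentile 12.8.

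With DMSO the conversion of the ID genes was higher than at 0 h. It is a fraction, and the levels of ID1, ID2 and ID3 were lower with DMSO, so a higher value does not by itself mean more new RNA. The amount of new RNA was not tested. ID1 averaged 11.2 ± 2.92% at 2 h and 15.2 ± 2.13% at 4 h (SD, n = 3 each) and 14 ± 2.71% at 8 h (n = 2), against 3.16 ± 0.94% at 0 h (n = 3). ID2 averaged 15.1 ± 1.97%, 19.4 ± 1.45% and 17.1 ± 1.16% (n = 3, 3 and 2), against 1.86 ± 0.71% at 0 h. ID3 averaged 12 ± 1.81% and 13.7 ± 1.32% at 2 and 4 h (n = 3 each), and its 1 usable 8 h library had 8.30%, against 0.991 ± 0.57% at 0 h (n = 3). For these 3 genes the 2 and 4 h libraries were all above all 0 h libraries.

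ID4 and SMAD7 had their highest conversion at 8 h. ID4 had 7.73%, 5.0% and 5.0% at 2 h of DMSO, 20.8%, 21.0% and 8.79% at 4 h and 26.1%, 23.1% and 26.4% at 8 h, against 0.900%, 0.537% and 0.553% at 0 h. SMAD7 averaged 27.5 ± 2.16%, 30.9 ± 0.46% and 36.8 ± 0.21% (n = 3, 3 and 2), against 11.3 ± 0.44% at 0 h (n = 2). SMAD9 averaged 0.853%, 0.782% and 1.22%, against 0.373% at 0 h.

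Of the tested genes, conversion with DMSO was called higher than at 0 h in 5 of 7 at 2 h (8.47% of 8320 genes were called higher), 5 of 6 at 4 h (34.7% of 7830) and 4 of 5 at 8 h (42.8% of 6479). ID1, ID2, ID4 and SMAD7 were called at each time and ID3 at the times it could be tested, with adjusted p between 2.68e-11 and 0.00497. The levels of ID3 in these libraries were known when the list was drawn up, so its part in these counts is a description. SMAD9 was called at none (adjusted p = 0.523, 0.388 and 0.107), and SKIL, testable at 2 h alone, had 3.22%, against 0.060% at 0 h (adjusted p = 0.0508). On the log2 scale of conversion SMAD7 was called at none of these times (adjusted p = 0.406, 0.243 and 0.189), ID1 was not called at 2 h (adjusted p = 0.0605), and SKIL was called at 2 h.

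**Figure D2:**
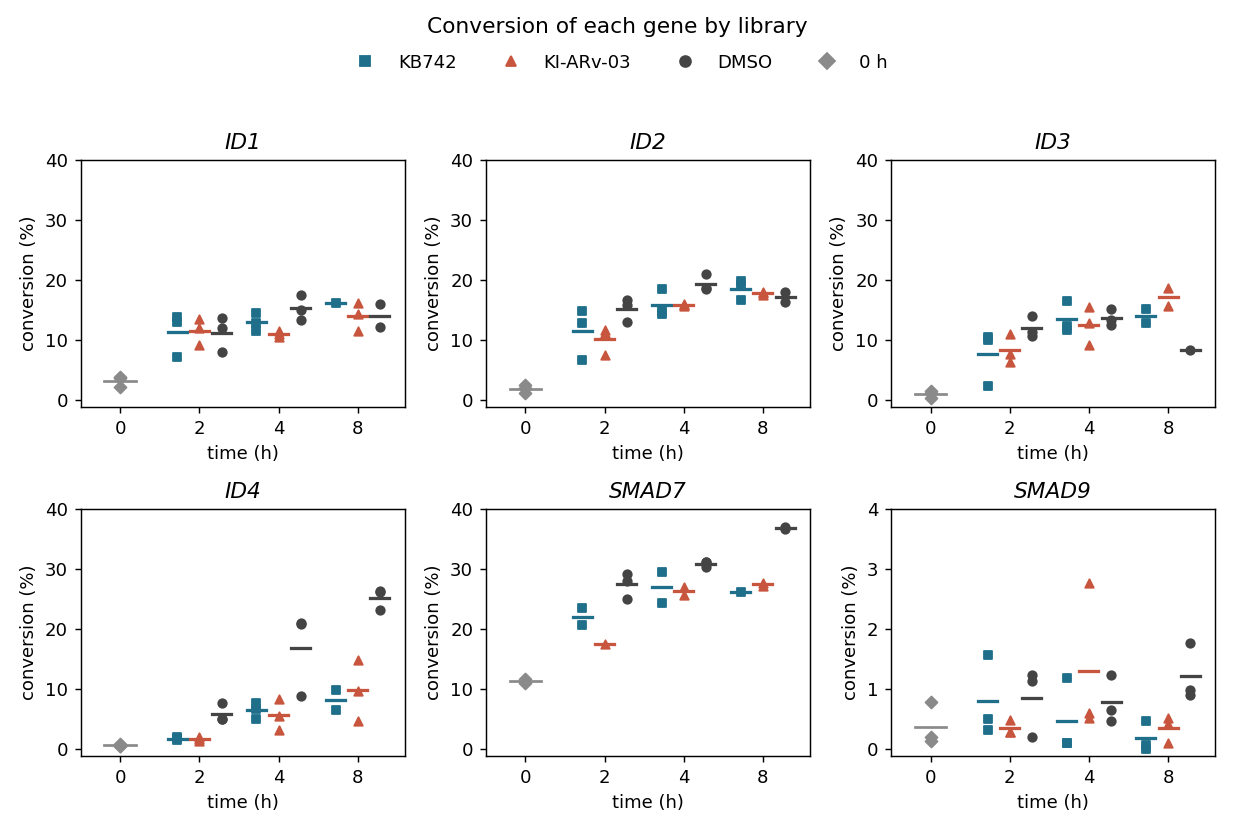
Conversion in percent on the y axis against hours on the x axis for 6 genes, with the SMAD9 panel on its own scale. Points are libraries with 20 or more reads of the gene and bars are group means of KB742, KI-ARv-03 and DMSO groups and of the 0 h group. ID4 separates at 8 h, with compound libraries at 4.70% to 14.9% and DMSO libraries at 23.1% to 26.4%, while ID1 and ID2 overlap.

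Among the ID genes, ID4 alone was called lower in conversion with the compounds against DMSO when all libraries were used. At 2 h it had 2.01%, 1.79% and 1.46% in KB742 libraries and 2.07%, 1.36% and 1.70% in KI-ARv-03 libraries, against 7.73%, 5.0% and 5.0% with DMSO. At 4 h it had 7.74%, 6.70% and 4.98% in KB742 libraries and 5.51%, 8.38% and 3.21% in KI-ARv-03 libraries, against 20.8%, 21.0% and 8.79% with DMSO. At 8 h it had 6.53% and 9.91% in KB742 libraries and 9.73%, 14.9% and 4.70% in KI-ARv-03 libraries, against 26.1%, 23.1% and 26.4% with DMSO. No compound library reached a DMSO library of its time.

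With KB742 the ID4 difference was -4.16 percentage points at 2 h (95% interval -5.51 to -1.63, adjusted p = 0.134), -10.4 at 4 h (-13.2 to -5.77, adjusted p = 0.00413) and -17.0 at 8 h (-21.0 to -11.8, adjusted p = 5.27e-05). With KI-ARv-03 it was -4.20 at 2 h (-5.54 to -1.68, adjusted p = 0.134), -11.2 at 4 h (-13.9 to -6.91, adjusted p = 0.00286) and -15.4 at 8 h (-19.9 to -10.8, adjusted p = 7.89e-05). The 2 h differences passed where each value was weighted by its reads (adjusted p = 0.0218 for KB742 and 0.00867 for KI-ARv-03). So weighted, the 4 and 8 h adjusted p were 0.00185 and 0.00139 with KB742 and 0.000382 and 0.00189 with KI-ARv-03. In simulated data the test without weights, which gave the main calls, made more false calls at 8 h than the weighted one. The simulated conversion varied between libraries of a group by counting of reads alone, so it does not give the rate of false calls in the real libraries. On a log2 scale of conversion, the 4 h calls and the KB742 8 h call did not hold (adjusted p = 0.154, 0.256 and 0.0781), and with only the compared groups in the fit the KB742 4 h call did not either (0.0649). Without the libraries that stood apart the 4 h calls held (adjusted p = 0.00617 and 0.00718).

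ID1, ID2 and ID3 had high conversion with the compounds too. At 8 h, ID2 had 19.1%, 19.9% and 16.6% in KB742 libraries and 17.5%, 17.8% and 18.0% in KI-ARv-03 libraries, against 16.3% and 17.9% with DMSO. The 95% intervals of these differences ran from -2.82 to 6.02 and from -3.56 to 5.26 percentage points, so a loss of the size seen for ID4 lay outside them. ID1 at 8 h with KI-ARv-03 averaged 14%, against 14% with DMSO, with an interval of -4.43 to 5.15 points.

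The earlier times were less even. ID2 at 2 h had 14.9%, 6.70% and 12.8% in KB742 libraries and 7.45%, 11.2% and 11.6% in KI-ARv-03 libraries, against 12.9%, 16.7% and 15.8% with DMSO, a difference of -3.64 points (95% interval -6.85 to -0.47, adjusted p = 0.279) and of -5.05 points (-7.93 to -1.84, adjusted p = 0.133). ID3 at 2 h had 10.5%, 2.25% and 10.0% in KB742 libraries and 6.32%, 10.9% and 7.55% in KI-ARv-03 libraries, against 11.2%, 10.6% and 14% with DMSO. The low KB742 values at 2 h are from its replicate 2, which stood apart. At 4 h, ID1 had 10.5%, 10.9% and 11.5% in KI-ARv-03 libraries, against 17.5%, 13.3% and 14.9% with DMSO. ID2 had 15.8%, 15.7% and 15.9% there, against 18.7%, 18.4% and 21.0% with DMSO. The differences were -4.25 points (95% interval -7.80 to -0.026, adjusted p = 0.26) and -3.58 points (-7.12 to 0.34, adjusted p = 0.319). KB742 libraries of both genes, and ID3 with each compound, overlapped DMSO at 4 h. Without the libraries that stood apart ID2 at 2 h was called with KI-ARv-03, and in that fit ID1, ID2 and ID3 were called in no other comparison with DMSO that could be tested. At 8 h ID3 had 1 usable DMSO library and ID1 had 1 usable KB742 library, so those could not be.

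In conversion against DMSO at 2 h, none of 7 genes was called under KB742 (0.852% of all genes were called lower). None of 5 was called under KI-ARv-03 (0.82%). At 4 h, KB742 had 1 of 6 called (17.4%) and KI-ARv-03 had 1 of 6 (7.3%), in each case ID4. At an unadjusted p under 0.05, KB742 had 3 of 7 at 2 h, beside 1169 of all 8095 genes tested. Its 4 h count was 1 of 6, beside 2588 of 7625. For KI-ARv-03 the 2 h count at that level was 2 of 5, beside 1098 of 8170. Its 4 h count was 2 of 6, ID1 and ID4, beside 1449 of 7640. At 8 h, KB742 had 2 of 3 called (34.6%) and KI-ARv-03 had 2 of 5 (36.8%). With 3 and 5 genes left to test at 8 h, nothing is read from those shares.

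The second call at 8 h was SMAD9 with KB742, at 0.466%, 0.067% and 0%, against 0.905%, 0.992% and 1.76% with DMSO (adjusted p = 0.0215). It did not hold in 3 of 6 fits without 1 library (adjusted p = 0.0575 to 0.110) or with values weighted by reads (0.0861). With KI-ARv-03 it was SMAD7, at 27.1% and 27.8%, against 36.7% and 37.0% with DMSO, a difference of -9.40 points (95% interval -15.1 to -3.35, adjusted p = 0.0174) resting on 2 values a group. On the log2 scale that call was lost (adjusted p = 0.737).

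**Figure D3:**
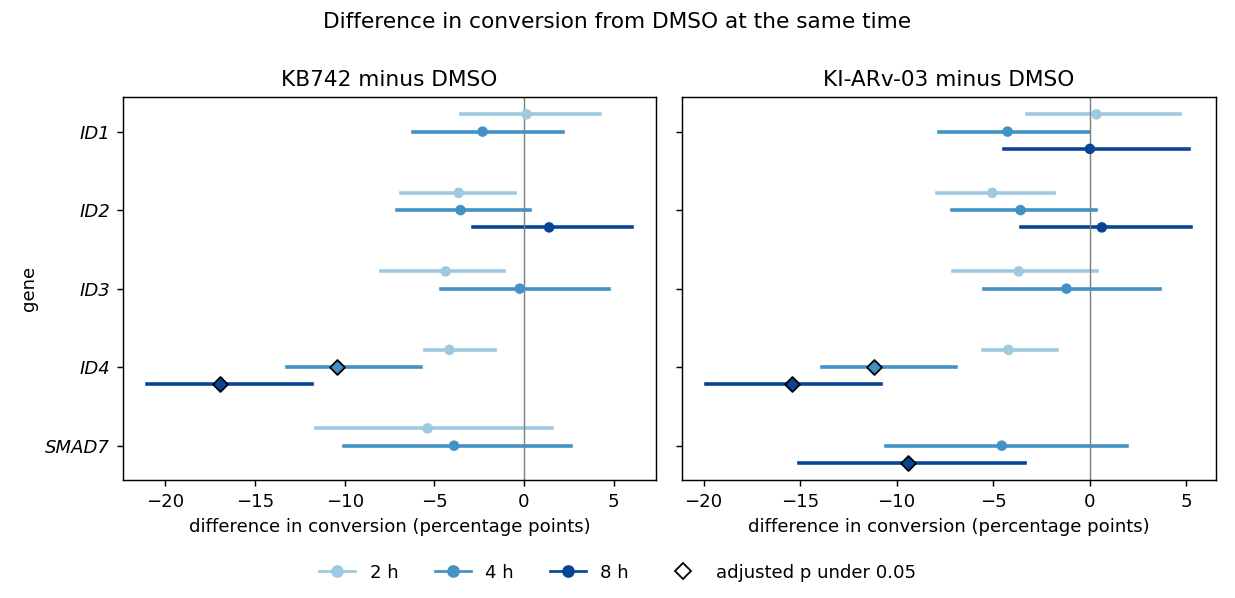
Difference in conversion, compound minus DMSO at the same time, in percentage points on the x axis for 5 genes on the y axis, KB742 left and KI-ARv-03 right. Points are differences of group means, lines are 95% intervals and outlined diamonds passed the test. ID4 lies furthest left at 8 h, at -17.0 and -15.4 points, while the 8 h intervals of ID2 cross 0.

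Among all genes, the median conversion at 8 h was 0.256% in KB742 libraries and 0.240% in KI-ARv-03 libraries, against 0.885% with DMSO, so ID1, ID2 and ID3 held values that few genes held under the compounds. With the compounds their percentiles were about 99.0 or higher wherever 2 or more libraries were usable, the lowest being that of ID3 with KB742 at 2 h. With DMSO these 3 genes ranked high too, at 98.4, 99.2 and 98.6 at 2 h and at 97.4, 98.3 and 96.9 at 4 h. ID1 and ID2 were at 95.9 and 96.7 with DMSO at 8 h. SMAD7 ranked above them, at 99.9 with each compound at 4 h. At 2 h, ID4 was at percentile 89.3 in KB742 libraries and 90.3 in KI-ARv-03 libraries, against 95.8 in DMSO libraries. At 4 h it was at 98.1 and 97.9, against 97.9 with DMSO, and at 8 h at 98.9 and 99.1, against 98.2 with DMSO, so its rank among genes was not lower at the times of its calls.

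Whether the deposited conversion depends on how many T a read can show is not known, since the fraction's denominator was not given. T made up 32.0% to 41.6% of the last 250 transcript bases of the 9 genes, beside a median of 32.0% over the 10503 genes whose 3′ untranslated region was matched (GENCODE 29, GRCh38), and the highest share was that of BAMBI. The core letters of AU-rich elements, ATTTA, occurred 1 time in ID1, 3 times in ID2, 1 time in ID3, 2 times in ID4 and 3 times in SMAD7, beside a median of 2, and 7 times in SMAD9, 6 in SMAD6, 5 in BAMBI and 23 in the long region of SKIL. Per kb of the region, ID1, ID3 and ID4 lay at percentiles 46.7, 54.2 and 44.2 of these genes and SMAD9 and SMAD7 at 52.8 and 55.2. ID2 lay at 83.1, and SMAD6, SKIL and BAMBI at 89.0, 92.0 and 98.8. Such elements are known to mark short-lived mRNAs. As a description only, 1 window is shown for each of ID2, ID3 and ID4, with ATTTA in capitals.
ID2, chr2:8683874-8683903, plus strand: tgtgatattcgttATTTAtgaaaaagactt
ID3, chr1:23558049-23558078, minus strand: ttctgttgccctgATTTAtgaactctataa
ID4, chr6:19839417-19839446, plus strand: cttttgtctcttcATTTAtaactgctgtga

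The rest of the pathway was read in lists of its ligands, receptors, signal-carrying SMADs, other brakes and helix-loop-helix partners, up to 5 called genes of each being named by adjusted p. At 8 h of DMSO against 0 h, 5 of 11 tested ligands were called lower and 1 higher, beside 29.1% and 20% of all genes. BMP2, an activator of SMAD1, SMAD5 and SMAD9, fell by 3.48 on the log2 scale, to 1.19 ± 1.16 CPM, against 21.2 ± 5.06 CPM at 0 h (SD, n = 3 each). TGFB3, INHBB and INHBA fell by 2.34, 2.04 and 2.28, and AMH, a ligand that signals through the BMP SMADs, rose by 2.39. The median over the 11 was 0.13, beside -0.14 over all genes.

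Of 12 tested receptors 7 were called lower and 1 higher, beside 29.1% and 20% of all genes, with a median of -1.71. ACVR2B, ACVR1B and ACVR2A fell by 1.84, 2.13 and 1.84, the co-receptor RGMB fell by 1.75, and AMHR2, the receptor of AMH, rose by 2.11. Of 5 signal-carrying SMADs 3 were called lower and 0 higher, beside the same shares of all genes, with a median of -0.72. SMAD1 fell by 2.98, SMAD3 fell by 1.8 and SMAD4, the shared partner, fell by 0.72, and the others were not called. SMAD1 had 6.68 ± 1.51 CPM, against 63.3 ± 26.6 CPM at 0 h.

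Of 15 other brakes 8 were called lower and 3 higher, beside the same shares of all genes. TOB1, which binds BMP SMADs and curbs them, fell by 3.83, the ubiquitin ligase SMURF2 fell by 2.19, PMEPA1 fell by 1.49 and the phosphatase PPM1A fell by 1.29. Among 12 helix-loop-helix partners and relatives 3 were called lower and 2 higher, shares below those of all genes. HES1, a Notch target, fell by 3.87, MYC fell by 4.19 and its partner MAX fell by 2.23, while TCF3, the E protein that ID proteins bind, rose by 1.19 and HES6 by 1.23.

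**Figure D4:**
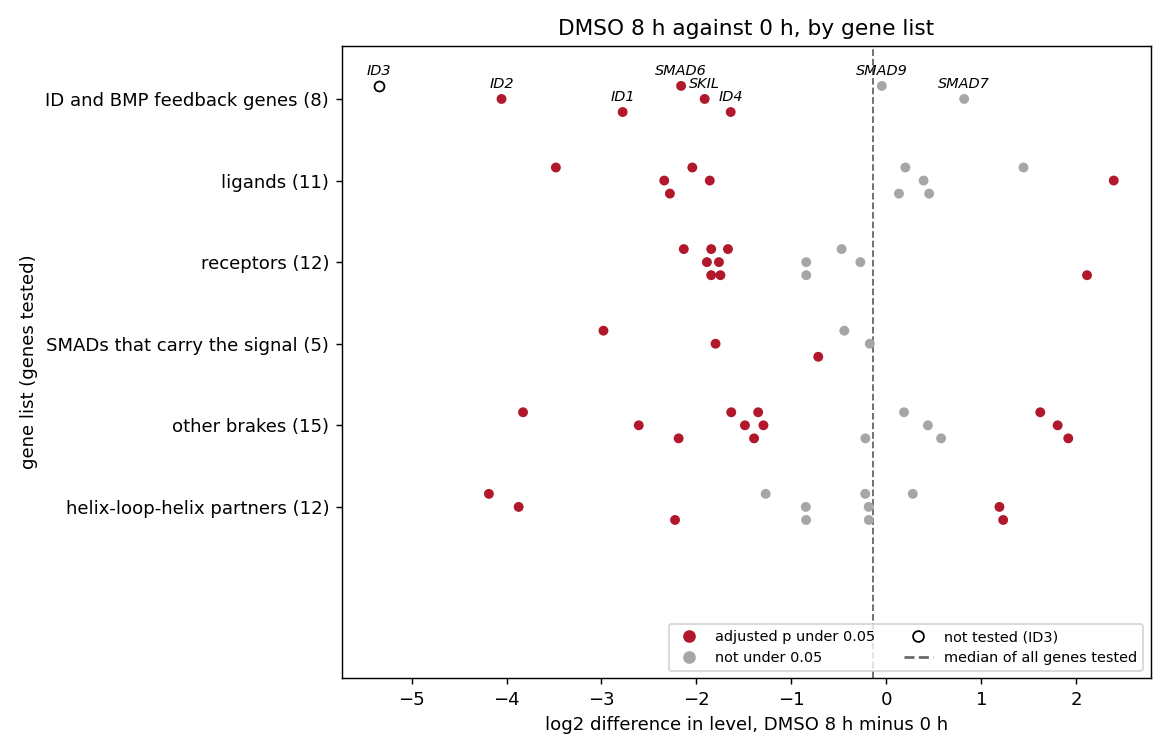
Log2 difference in level, DMSO 8 h minus 0 h, on the x axis for the tested genes of 6 lists on the y axis. Points are genes, filled by whether they passed the test, and ID3 is open as untested; the dashed line is the median of all genes, -0.14. The 7 receptors that passed as lower lie between -2.13 and -1.67, AMHR2 lies at 2.11, and ID2 lies at -4.05.

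With the compounds at 8 h few of these genes differed in level from DMSO. HES1 was higher with KB742 (1.94 ± 0.50, adjusted p = 0.0421) and with KI-ARv-03 (2.49 ± 0.50, adjusted p = 0.00589), at 4.50 ± 0.88 and 7.30 ± 2.80 CPM, against 0.464 ± 0.409 CPM with DMSO. HES6 fell under KB742 (-1.35 ± 0.36, adjusted p = 0.0489) and under KI-ARv-03 (-1.29 ± 0.36, adjusted p = 0.0465). AMH was lower with KI-ARv-03 (-1.75 ± 0.44, adjusted p = 0.0267).

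In conversion at 8 h against DMSO, 4 of 7 tested brakes were called lower with each compound. PMEPA1, a membrane protein that traps SMADs away from receptors, averaged 3.48 ± 0.52% in KB742 libraries and 2.98 ± 0.93% in KI-ARv-03 libraries, against 13.3 ± 2.91% with DMSO (n = 3 each). The ligand GDF11 averaged 1.47 ± 0.983% and 0.612 ± 0.668%, against 11.4 ± 5.52% with DMSO. SMAD5, a carrier of the BMP signal, averaged 0.270 ± 0.0662% and 0.257 ± 0.0558%, against 3.85 ± 1.24% with DMSO.

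Of the signal-carrying SMADs, 1 of 3 was called lower in conversion under KB742, and 2 of 3 under KI-ARv-03. BMPR2, the only receptor that could be tested there and named for that reason, was not called (adjusted p = 0.108 for KB742 at 8 h and 0.252 for KI-ARv-03). Of the ligands 1 of 2 was called with each compound, and of the helix-loop-helix genes 4 of 6 and 4 of 7. All these counts stand beside 34.6% and 36.8% of genes over all.

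Across the 10 group means, levels of some genes outside the pathway ran most closely with the ID genes. Over log2(CPM + 1), the highest Pearson correlations (n = 10 groups) with ID1 were those of RIOX1 (0.984), THAP3 (0.98) and ZNF394 (0.979), with ID2 those of HPS6 (0.987), DNAAF2 (0.986) and NRARP (0.986), with ID3 those of RBM15 (0.992), RCOR3 (0.984) and ID2 (0.983), and with ID4 those of FEM1A (0.983), NUP62 (0.983) and PIGC (0.979). The groups share their libraries across genes, and 1 group, 0 h, stands far from the rest. Among the genes of the list, ID1 correlated with ID2 at 0.916, ID2 with ID3 at 0.983 and ID3 with ID4 at 0.749, while ID2 with SMAD7 gave -0.40.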

How the data were processed

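RNA levels and T-to-C conversion were measured in 30 libraries of 22Rv1 cells. Per the file headers, the authors deposited CPM (a scaled signal, with 100% of values within 0.05 of a whole number of reads, so whole reads were recovered) and a conversion fraction per RefSeq transcript, in 85618 rows. The build was hg19 per the submitters' processing notes, and the aligner, the conversion caller and the fraction's denominator were not given in the sources used here.

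Each gene was read from its transcript with the highest summed CPM. Levels were rescaled by TMM factors and tested with limma 3.58.1 on log2(CPM + 1) in 1 fit of 10 groups, over 11425 genes kept by edgeR 4.0.16 (filterByExpr, minimum count 10) in R 4.3.3. The count test first planned was replaced because the file holds scaled values. For conversion, limma was run on arcsine square roots, for genes with 20 or more reads behind each value and 2 or more values in both groups, and intervals were carried back to percentage points at the DMSO or 0 h mean. Benjamini-Hochberg adjustment ran over all genes tested, and both tests were tested on simulated data. There the conversion test without weights made more false calls at 8 h than the weighted one. The simulated conversion had no spread between libraries of a group beyond counting of reads, unlike the real libraries, so their rate of false calls is not known from it. The median 95% interval of a level reached 0.864 on the log2 scale to either side. DESeq2 1.42.0 and edgeR on recovered reads, other scalings, filters and pseudocounts, a replicate block and leaving out each library were alternatives; the weighting by reads and the fits without the 3 libraries that stood apart were chosen after seeing the data.

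The genes and lists were chosen with earlier results of these data known. Named genes were the 9 genes, the 3 genes most like each ID gene over group means, and up to 5 called genes of each list by adjusted p. Of the genes this rule names, 1 is not reported here. GDF11, SMAD5 and the marker genes are named for their list or as checks. Groups came from the sample titles. Some treatment fields at 4 h and the note on the KB742 dose disagree with the titles. Promoters came from RefSeq (GRCh38.p14), matched by symbol for all 9 genes. The 3′ untranslated regions came from GENCODE 29, matched by RefSeq transcript, the longest being taken where several matched. No coordinates were converted from hg19.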

Additional observations from a re-analysis of the deposited data

How the results depend on the processing

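Against 0 h, the levels of ID1 and ID2 at each time, of SKIL at 4 and 8 h and of ID4 at 8 h were called in each alternative run. SKIL at 2 h and SMAD6 at 4 h were also called with library sizes, with values as deposited and by DESeq2, SMAD6 with KI-ARv-03 at 8 h was called under both scalings, BAMBI there without the filter, and SMAD6 with KB742 at 8 h was not with only the compared groups (adjusted p = 0.0506). SMAD9 and SMAD7 lay near 0 and changed sign: SMAD9 with DMSO ran from -0.46 to 0.038 at 2 h and from -0.40 to 0.10 at 8 h when 1 library was left out. SMAD7 at 8 h against DMSO turned to 0.020 (KB742) and 0.14 (KI-ARv-03) with library sizes, to 0.11 and 0.23 with values as deposited, and ran from -0.45 to 0.21 and from -0.27 to 0.40 with 1 library left out. SMAD7 with KB742 at 8 h against 0 h was -0.17 without the libraries that stood apart, and ran from -0.17 to 1.1 with 1 left out. The cause was not tested.

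With 1 library left out, counts of called genes for conversion ran from 1 to 4 for DMSO at 8 h against 0 h, and against DMSO at 8 h from 0 to 2 with KB742 and from 1 to 2 with KI-ARv-03. A minimum of 10 reads added ID3 for DMSO at 8 h against 0 h and SMAD7 for KB742 at 8 h against DMSO (3 calls). A minimum of 50 reads left 2 calls of 3 genes tested for DMSO at 4 h and 1 of 2 at 8 h, and at 8 h against DMSO 1 of 1 for KB742 and 0 of 1 for KI-ARv-03, since fewer genes could be tested. On the log2 scale the calls against DMSO were 0 at 4 h and 1 at 8 h with each compound, and with only the compared groups in the fit 0 with KB742 at 4 h, where ID4 was lost. Weighted by reads they were 1 at 2 h with each compound and 1 at 8 h with KB742, and without the libraries that stood apart 1 with KI-ARv-03 at 2 h. Without those libraries SMAD9 was also called with DMSO at 8 h against 0 h and with KI-ARv-03 at 8 h against DMSO. The remaining 301 counts stayed within 1.5 times, and 759 single values kept their direction and their side of the threshold.

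With a replicate block the counts were those of the fit without it: 2, 4 and 5 for levels with DMSO, 5 and 4 with KB742 and KI-ARv-03 at 8 h against 0 h, 0 against DMSO, and for conversion 5, 5 and 4 with DMSO, 0, 1 and 2 with KB742 and 0, 1 and 2 with KI-ARv-03. Deviations of same-numbered libraries correlated between -0.41 and 0.45, never over 0.1 in all 3 pairs, so the numbers were not taken as pairing. Depth limited SMAD6, BAMBI and SKIL and, for conversion at 8 h, ID1, ID3 and SMAD7.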
